A study of Mus musculus with 10 samples.

Results

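Immunoglobulin transcripts are the main product of plasma cells, and they were followed here gene by gene in obstructed kidneys. The members were all genes of the deposited table annotated as immunoglobulin constant, variable (V), leader-containing variable (LV), diversity (D) or joining (J) genes, without pseudogenes, together with Jchain. They numbered 269 of 54532 genes. Among them were 13 constant genes, 218 V segments, 4 LV segments, 19 D segments, 14 J segments and Jchain. The kidneys came from wild-type male C57BL/6 mice, whose left ureter was ligated at 8 weeks of age (unilateral ureteral obstruction, UUO) and which were sacrificed 14 days later. The 5 control mice received PBS, and the 5 other mice received dimethyl malonate (DMM), an inhibitor of succinate dehydrogenase, intraperitoneally at 40 mg/kg every other day. A single library was sequenced per kidney, every kidney was obstructed, and kidneys without UUO were not analysed here. The comparison asks how DMM changed RNA levels in the obstructed kidney. Total counts per library were between 16457495 and 18078777 in the control group (median 17825223), and from 15722527 to 19475833 in the DMM group (median 16794390).

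An antibody is made of a pair of heavy and a pair of light chains. In each B cell a V, a D and a J segment are joined for the heavy chain and a V and a J segment for the kappa or lambda light chain. A V segment is therefore read mainly from cells that rearranged it, while the constant gene gives the class (IgM, IgD, IgG, IgE or IgA). Plasma cells, which descend from activated B cells, transcribe the rearranged genes at very high levels, and Jchain encodes the joining chain of polymeric IgM and IgA.

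Several libraries stood apart before any comparison was made. The group means deposited by the authors, written as weighted sums of the counts, gave a weight of 0 to control replicate 3 and to DMM replicate 1, and weights between 0.227 and 0.271 to the other 8 libraries. No reason for the weights of 0 was found in the files, and the study's methods name no library that was left out. Values are given over all 10 libraries and also over these 8. Control replicate 4 held 7937 of the 21600 counts on the members, against 1693 to 2117 in the other 4 control kidneys, and results are also given without it. DMM replicate 4 had the lowest number, 638 counts, and its normalization factor was 0.852, against 0.981 to 1.05 in the other 9 libraries. Levels are normalized read counts (CPM, counts scaled to library size with TMM factors). DMM replicate 4 also stood apart in genes outside the members. The complement gene C1qa was at 32.5 CPM there and at 140 to 366 CPM in the other kidneys. Ell2 was at 119 CPM there and at 36.9 to 56.5 CPM in the others, while Csf1r, at 223 CPM, lay within their range. The cause was not tested. Both kidneys of weight 0 lay towards the other group. Of the control kidneys, replicate 3 had the lowest summed level of constant genes, at 81.6 CPM, and the highest of proximal tubule genes, at 5652 CPM, while DMM replicate 1 lay above 4 of the 5 control kidneys in constant genes, at 115.2 CPM. Leaving out both moved the difference in summed log2 constant level from -1.09 to -1.49, and every p value over the 8 libraries depends on this choice. Log2 fold changes compare DMM with control and are given with their standard error (SE). A count of 0 allows up to 3 counts, which was 0.159 to 0.189 CPM per library. The libraries carry no molecular identifiers that the sources used here describe, so that this limit and all intervals below cover counting error only.

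Immunoglobulin RNA was on average lower in DMM than in control kidneys, for summed constant genes, summed variable segments and Jchain, though not for Ighd and, over all 10 libraries, Ighg1. Summed IgG genes, Ighg3 and Iglc3 were not lower in mean CPM once control replicate 4 was left out. The mean log2 level of the IgG sum then differed by -0.08. Of the 146 V segments with counts, 85 then had a lower and 51 a higher mean in DMM. The groups overlapped and the kidneys of each group differed widely. The summed constant level was 142 ± 108 CPM (SD, n = 5) in control and 62.7 ± 33.0 CPM (SD, n = 5) in DMM kidneys. Without control replicate 4 the control mean was 93.7 ± 11.5 CPM (SD, n = 4). Ighm, the constant gene of IgM, was called lower over the 8 libraries and not over all 10. Control replicate 4 stood apart, with Ighg3 and a few V segments at levels that no other kidney approached.

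Over all 10 libraries, 9 of the 269 members had enough counts to be tested, and they were Ighm, Ighd, Igha, Ighg1, Ighg2b, Ighg2c, Igkc, Iglc1 and Jchain. Calls required a fold change of more than 1.5 and an adjusted p below 0.05 in edgeR's quasi-likelihood test, adjusted after Benjamini-Hochberg. With edgeR, 0 of these 9 were called higher and 0 lower in DMM, and 0% of the 16505 genes tested were called in either direction. DESeq2 called 0 members as well, with 12 genes higher and 33 lower among all genes. The absence of calls by edgeR among all genes rested on DMM replicate 1. Without that kidney alone, edgeR called 2.55% of the 16760 genes tested lower and 0.251% higher, and 0 of the 9 members tested. At an unadjusted p under 0.05, 4 of the 9 were lower in that fit. The share of all genes at that threshold is not given for it, so this count is no support. Iglc1 was among the 4 and passed the filter there through control kidneys alone. Without any other single library edgeR called 0 genes. Over all 10 libraries, with an unadjusted p below 0.05 and the same fold change, 2 members were lower (Ighm and Iglc1) and 0 were higher, where 4.08% of all genes tested were lower and 1.86% higher. The median log2 fold change was -1.10 over the 9 members and 0.02 over all genes tested. Without control replicate 4 it was -0.57 over the 9 members, against 0.02. In none of the 9 did every DMM kidney lie below every control kidney, a pattern seen in 1.16% of all genes tested.

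Over the 8 libraries, the same number of members was tested, and Ighm was the only one called, lower in DMM. Among the 16550 genes tested, 3.43% were called lower and 2.55% higher. At an unadjusted p under 0.05, 4 of the 9 were lower (Ighm, Igkc, Iglc1 and Jchain) and 0 higher, against 7.2% and 6.35% of all genes tested, and the median log2 fold change was -1.43, against 0.02, or -1.11 with control replicate 4 also left out. These 4 members also had every DMM value below every control value, as did 10.6% of all genes tested. Iglc1 passed the filter on low counts over the 8 through the 4 control kidneys alone, with 0 of the 4 DMM kidneys reaching the limit, so it had to differ and its place in both counts is no support. In whole-kidney RNA, fewer plasma or B cells and less RNA per cell cannot be told apart.

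The constant genes were summed first. The summed level of the 13 constant genes was 95.1, 108.9, 81.6, 333.1 and 89.4 CPM in control replicates 1 to 5, and 115.2, 69.5, 58.4, 32.4 and 37.7 CPM in DMM replicates 1 to 5. Control replicate 4 was the highest, and DMM replicate 1 lay above 4 of the 5 control kidneys. The mean was 142 ± 108 (SD, n = 5) CPM in control and 62.7 ± 33.0 CPM (SD, n = 5) with DMM, a difference of -1.09 in mean log2 level, which was -0.72 without control replicate 4 and -1.49 over the 8 libraries. The control mean without replicate 4 was 93.7 ± 11.5 CPM (SD, n = 4). The SD of the log2 level between kidneys was 0.84 in control and 0.73 in DMM. Sums over members were not tested.

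**Figure D1:**
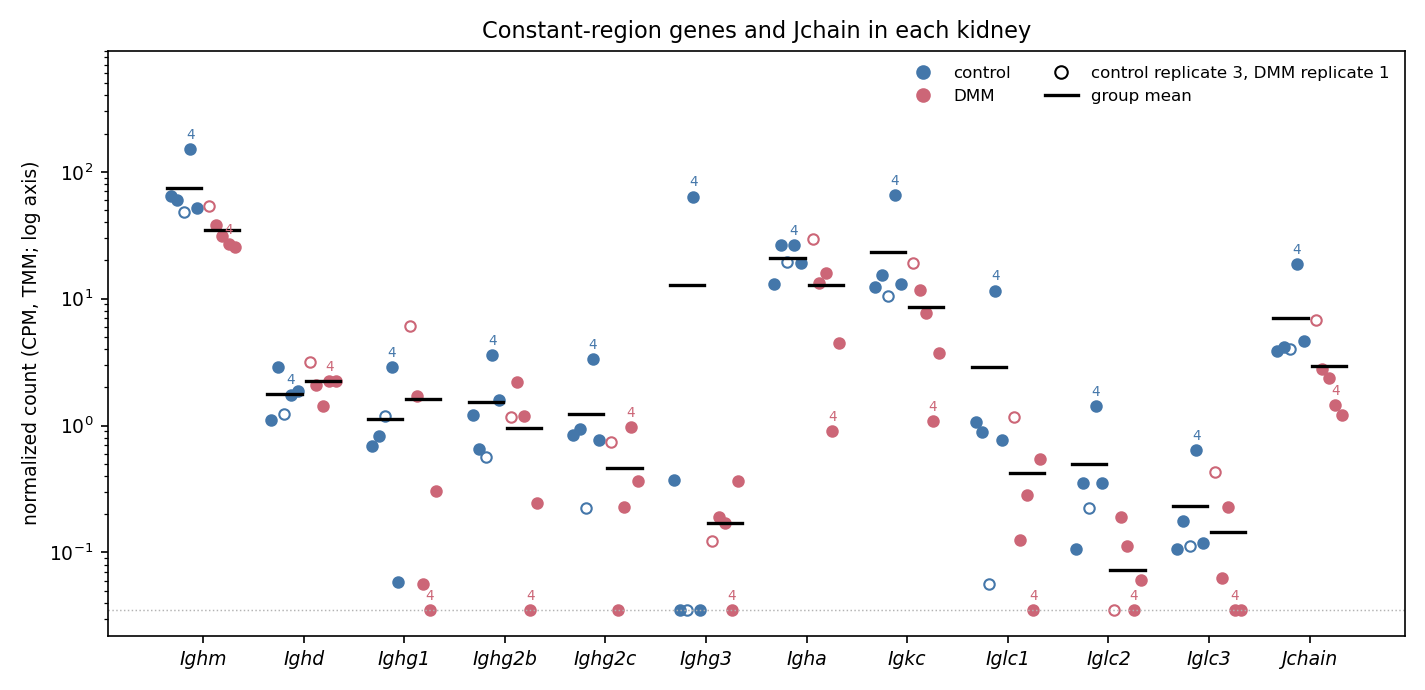
Normalized counts (CPM with TMM, log axis) of the constant-region genes with more than 1 count and of Jchain, with a point for each kidney, 5 control and 5 DMM, and a line at the group mean. Open points are control replicate 3 and DMM replicate 1, points marked 4 are the replicates of that number, and points on the dotted line are counts of 0. Ighg3 stood at 63.8 CPM in control replicate 4 and at 0.371 CPM or less in the other 9 kidneys.

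Ighm (chromosome 12, 113418558 to 113422730, minus strand) encodes the constant region of IgM, the class made before switching. Its level was 64.1, 60.3, 48.2, 151.7 and 51.6 CPM in control replicates 1 to 5, and 53.7, 37.9, 31.0, 27.2 and 25.5 CPM in DMM replicates 1 to 5. The groups overlapped only through DMM replicate 1, which lay above control replicates 3 and 5. The mean was 75.2 ± 43.3 (SD, n = 5) CPM in control and 35.0 ± 11.5 (SD, n = 5) CPM in DMM, and over all 10 libraries the log2 fold change was -1.10 (SE 0.34, edgeR's quasi-likelihood test, Benjamini-Hochberg adjusted p = 0.392). Over the 8 libraries it was -1.43 (SE 0.34, adjusted p = 0.0420 by the same edgeR test), and every DMM kidney lay below every control kidney. Without control replicate 4, the log2 fold change was -0.68 over the remaining 9 libraries (adjusted p = 0.699 by edgeR) and -0.95 over the remaining 7 (adjusted p = 0.0346 by edgeR), where 1.75% of all genes tested were called lower. The call over the 8 libraries was lost when any other single library was left out, with adjusted p values by edgeR between 0.0346 and 0.120 over the 8 fits. Leaving out each of the 10 libraries in turn gave adjusted p values by edgeR between 0.0761 and 0.717, and the other settings over all 10, DESeq2 among them, gave 0.0777 to 0.532. With the replicate number as a replicate block, the log2 fold change was -0.99.

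Ighd (chromosome 12, 113406604 to 113416324), which lies next to Ighm and is made from the same primary transcript in mature naive B cells, had a different pattern. Its level was 1.11, 2.88, 1.24, 1.76 and 1.88 CPM in control replicates 1 to 5 and 3.15, 2.08, 1.42, 2.24 and 2.25 CPM in DMM replicates 1 to 5. The groups overlapped, and DMM replicate 4 was not low. The log2 fold change was 0.33 (SE 0.31, adjusted p = 0.680 by edgeR's quasi-likelihood test) over all 10 libraries and 0.06 (SE 0.33) over the 8. Whether the change of Ighd differed from that of Ighm was not tested.

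Igha (chromosome 12, 113254830 to 113260236) encodes the constant region of IgA, the class of mucosal secretions. Its level was 13.0, 26.4, 19.3, 26.5 and 19.2 CPM in control replicates 1 to 5 and 29.7, 13.3, 15.98, 0.906 and 4.44 CPM in DMM replicates 1 to 5. Control replicate 4 did not stand apart in this gene, the highest value was that of DMM replicate 1, and DMM replicates 4 and 5 were the lowest. The log2 fold change was -0.70 (SE 0.63, adjusted p = 0.666 by edgeR's quasi-likelihood test) over all 10 libraries, -1.30 (SE 0.67) over the 8, and -0.40 over all but DMM replicate 4.

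The 4 IgG genes summed to 1.97 to 3.12 CPM in control replicates 1, 2, 3 and 5, to 73.7 CPM in control replicate 4, and to 0.966 to 8.09 CPM in DMM kidneys. The difference in mean log2 level of this sum was -1.06 over all 10 libraries and -0.08 without control replicate 4, where the mean was 2.48 CPM in control and 3.21 CPM in DMM kidneys, and it was not tested. Ighg3 made up most of the sum in control replicate 4. It had 1200 counts there, 7 in control replicate 1, 0 in control replicates 2, 3 and 5, and 2, 3, 3, 0 and 6 in DMM replicates 1 to 5. In control replicate 4 it held 25.2% of the heavy-chain constant counts (95% Wilson interval 24.0 to 26.4%), against 0.456% (0.221 to 0.938%) in control replicate 1 and at most 1.09% (0.501 to 2.36%) in any DMM kidney. Ighg3 did not pass the filter on low counts in either set of libraries and was not tested.

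Ighg1 was highest in another kidney, DMM replicate 1, at 98 counts and 6.39% of the heavy-chain constant counts (95% Wilson interval 5.27 to 7.73%). Its level was 0.688, 0.824, 1.18, 2.87 and 0.0588 CPM in control replicates 1 to 5 and 6.05, 1.70, 0.0567, 0 and 0.304 CPM in DMM replicates 1 to 5. Its log2 fold change was 0.51 (SE 1.12, adjusted p = 0.864 by edgeR's quasi-likelihood test) over all 10 libraries and -1.13 (SE 1.18) over the 8. It was -0.05 over the 8 without control replicate 4 and -0.21 over all 10 with the replicate block, so that its direction depended on the libraries and on the model. Ighg2b was between 0.562 and 3.62 CPM in control and between 0 and 2.21 CPM in DMM kidneys, with a log2 fold change of -0.67 (SE 0.79) over all 10 libraries and -0.06 without control replicate 4. Ighg2c, which C57BL/6 mice carry in place of Ighg2a, was between 0.225 and 3.35 CPM in control and between 0 and 0.966 CPM in DMM kidneys, with a log2 fold change of -1.41 (SE 0.79) over all 10 libraries and -0.59 without control replicate 4. Neither was called over 10 or 8 libraries. Ighg2c was called lower (log2 fold change -2.85) over the 8 libraries without DMM replicate 4, where 7.42% of all genes tested were called lower. In that fit it passed the filter on low counts through the control kidneys alone, with 0 of the 3 DMM kidneys reaching the limit, and DMM replicate 4, the DMM kidney with the most Ighg2c, was left out, so this call is no support for a difference. The IgG genes resemble one another, and Ighg2c and Ighg2b shared 6.01% and 4.33% of their stretches of 50 bases with another immunoglobulin transcript, so that reads on these stretches could be split between them. Ighe, the constant gene of IgE, had 0 counts in all 10 libraries.

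Of the light chains, Igkc (chromosome 6, 70726435 to 70726966, plus strand) is the single kappa constant gene. Its level was 12.4, 15.4, 10.6, 65.8 and 13.1 CPM in control replicates 1 to 5 and 19.01, 11.8, 7.76, 1.09 and 3.71 CPM in DMM replicates 1 to 5. Without control replicate 4, the control values spanned less than the DMM values, and DMM replicate 1 lay above the other 4 controls. The log2 fold change was -1.44 (SE 0.72, adjusted p = 0.502 by edgeR's quasi-likelihood test) over all 10 libraries, -0.57 without control replicate 4, and -2.13 (SE 0.77, adjusted p = 0.151, 0.125 to 0.451 with each of the 8 left out in turn) over the 8, where it was -1.16 with control replicate 4 also left out. On its strand Igkc overlaps a noncoding gene, Gm30211, with 9 counts in all, and how reads in the overlap were assigned is not given. DMM replicate 4 had 18 counts on Igkc beside 450 on Ighm. The level of Ighm over that of Igkc, each per length, was 7.05 there, 0.797 to 1.94 in the other DMM kidneys and 0.650 to 1.45 in the control kidneys. DMM replicate 4 also stood apart in genes other than immunoglobulin, and the part of that in this ratio was not tested.

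Among the lambda constant genes, Iglc1 had 20, 15, 1, 218 and 13 counts in control replicates 1 to 5 and 19, 2, 5, 0 and 9 in DMM replicates 1 to 5. Control replicate 4 was again the highest, and control replicate 3 and DMM replicates 2 and 4 were the lowest. The log2 fold change was -2.74 (SE 1.18, adjusted p = 0.447 by edgeR's quasi-likelihood test) over all 10 libraries, -0.69 without control replicate 4, and -3.86 (SE 1.19, adjusted p = 0.0960, 0.118 to 0.292 with each of the 8 left out in turn) over the 8, where it was -1.89 with control replicate 4 also left out. Iglc2 had 45 counts in control and 6 in DMM kidneys, Iglc3 had 21 and 12, and Iglc4 had 1 and 0, and none of these was tested. Control replicate 4 held 27 of the Iglc2 and 12 of the Iglc3 counts in control kidneys. Without it the mean level of Iglc3 was 0.284 CPM per kb in control and 0.319 CPM per kb in DMM kidneys. Iglc1 and Iglc3 lie opposite an antisense gene with 0 counts. Iglc2 and Iglc3 were 95.5% identical over 449 aligned bases. The kappa share of light-chain constant levels, per length, was 89.5 to 96.4% in control replicates 1, 2, 3 and 5, 80.8% in control replicate 4 and 84.2 to 100% in DMM kidneys. In counts, the kappa share of control replicate 4 was 82.8% (95% Wilson interval 80.8 to 84.6%), below the 90.7% (86.6 to 93.7%) of control replicate 1, and the share of 100% in DMM replicate 4 rested on 18 counts (82.4 to 100%).

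Jchain (chromosome 5, 88519809 to 88527891, minus strand) followed a similar order of kidneys. Its level was 3.87, 4.18, 4.05, 18.7 and 4.65 CPM in control replicates 1 to 5 and 6.85, 2.77, 2.38, 1.45 and 1.22 CPM in DMM replicates 1 to 5. The 4 control kidneys other than replicate 4 differed little, with 4.18 ± 0.334 (SD, n = 4) CPM, and all DMM kidneys but replicate 1 lay below them. The log2 fold change was -1.27 (SE 0.59, adjusted p = 0.472 by edgeR's quasi-likelihood test) over all 10 libraries, -0.51 without control replicate 4, -2.01 (SE 0.58, adjusted p = 0.0802, 0.0921 to 0.194 with each of the 8 left out in turn) over the 8, and -1.11 (SE 0.33, adjusted p = 0.146) over the 8 without control replicate 4. Per length, the mean level in control kidneys was 44.1 CPM per kb for Igkc, 39.9 for Ighm, 7.83 for Igha and 2.82 for Jchain. Without control replicate 4 it was 24.2, 29.7, 7.30 and 1.66 CPM per kb in the same order of genes, so that Ighm then lay above Igkc. In DMM kidneys it was 16.3, 18.6, 4.82 and 1.17 CPM per kb.

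Variable segments were read far more thinly. Of the 218 V segments, 146 had at least 1 count and 72 had 0 in all libraries, and 0 passed the filter on low counts, so that none was tested. Their 2482 counts came from 74 of 113 heavy, 69 of 102 kappa and 3 of 3 lambda segments. The heavy V segments lie on chromosome 12 between 113578504 and 116000461, the kappa V segments on chromosome 6 between 67555497 and 70704177, and the lambda V segments on chromosome 16 between 19085017 and 19260859. The summed V level was 9.06, 10.9, 6.80, 68.9 and 8.88 CPM in control replicates 1 to 5 and 12.2, 6.49, 7.20, 3.93 and 3.95 CPM in DMM replicates 1 to 5. The order of kidneys was close to that of the constant genes, with control replicate 4 highest and DMM replicate 1 above the other 4 controls. The difference in mean log2 level was -1.11 over all 10 libraries, -0.51 without control replicate 4 and -1.60 over the 8, and it was not tested. For each count on a constant gene there were 0.207 counts on V segments in control replicate 4, 0.0833 to 0.1 in the other control kidneys and 0.0934 to 0.123 in the DMM kidneys.

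V counts were spread over many segments. The number of V segments with at least 1 count was 50, 54, 50, 91 and 47 in control replicates 1 to 5 and 67, 44, 44, 10 and 30 in DMM replicates 1 to 5. Of the 33 segments that reached 10 counts in any kidney, 31 did so in a single kidney, 19 of these in control replicate 4, which held 1296 of the 2482 V counts against 65 to 198 in each other kidney. The exceptions were Iglv1, which did in 4 kidneys, and Ighv1-26, which did in 3. At 1 count or more, 41 segments were read in at least 5 kidneys and 66 in 1 or 2, and Ighv14-2 was the only one read in all 10. These numbers depend on depth, and whether kidneys differed in the segments they used was not tested. The effective number of V segments, the exponential of the Shannon entropy of the V counts, was 26.2 to 41.6 in control kidneys and 8.58 to 43.9 in DMM kidneys. DMM replicate 4 set the lower end. It had 65 V counts on 10 segments, whereas DMM replicate 5 had 65 counts on 30. The mean effective number was 33.2 ± 6.23 (SD, n = 5) in control and 28.8 ± 13.3 (SD, n = 5) in DMM, a difference of -4.36 that became 0.70 without DMM replicate 4. This number depends on depth, and it was not tested.

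**Figure D2:**
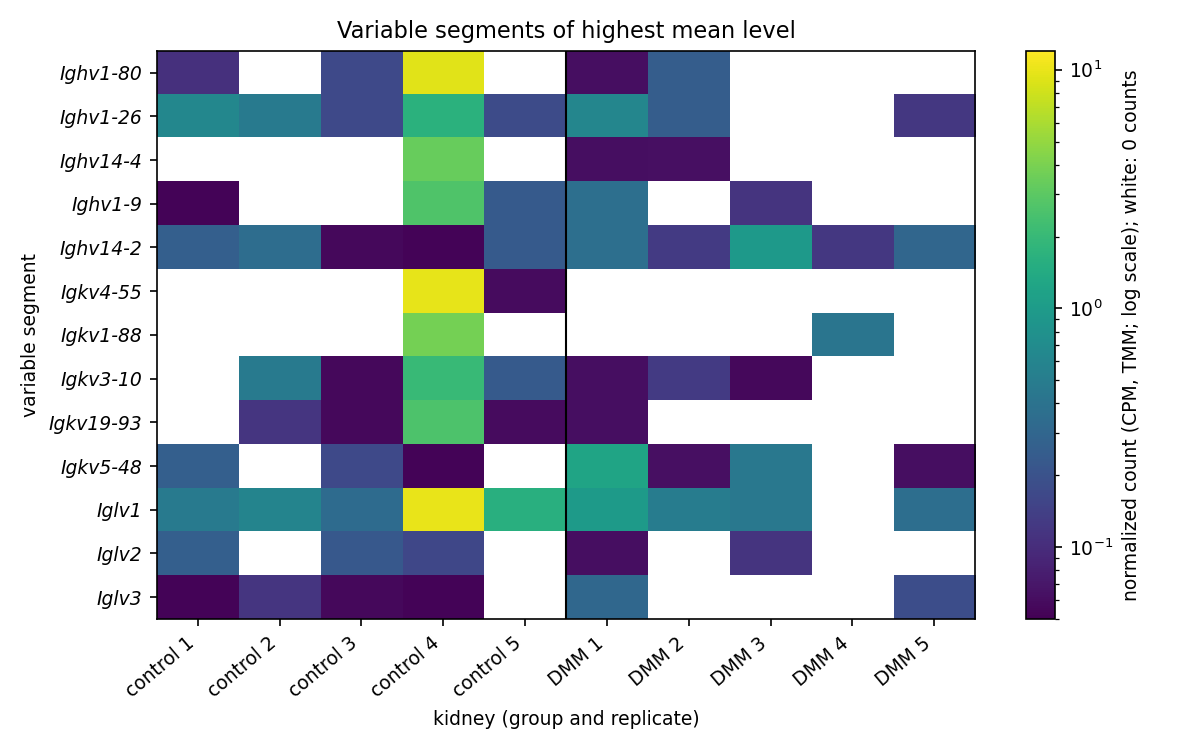
Normalized counts (CPM with TMM, colour on a log scale, white for a count of 0) of the 5 heavy, 5 kappa and 3 lambda V segments with the highest mean level, in each of the 5 control and 5 DMM kidneys. Igkv4-55, Ighv1-80 and Iglv1 stood at 9.90, 9.42 and 10.002 CPM in control replicate 4 and at 0.0588, 0.252 and 1.59 CPM or less in the others.

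A single heavy and a single kappa segment took a large share in control replicate 4. Igkv4-55 had 186 of its 187 counts there and 1 in control replicate 5, and it made up 33.2% of the kappa V counts of control replicate 4 (95% Wilson interval 29.4 to 37.2%). Ighv1-80 had 177 counts in control replicate 4, 2 and 3 in control replicates 1 and 3, 1 and 4 in DMM replicates 1 and 2 and 0 elsewhere, and it made up 32.5% of the heavy V counts of control replicate 4 (28.7 to 36.6%). Leading segments of some other kidneys held similar or larger shares, of far fewer counts. They held 32.3% of heavy and 44.1% of kappa V counts in DMM replicate 4, and 31.5% of heavy V counts in DMM replicate 3. Iglv1 had 9, 10, 6, 188 and 27 counts in control replicates 1 to 5 and 16, 8, 8, 0 and 6 in DMM replicates 1 to 5. It was the largest lambda segment in each of the 9 kidneys with lambda V counts, with 97.9% (94.8 to 99.2%) in control replicate 4, 100% in control replicate 5 (27 of 27 counts, 87.5 to 100%) and 100% in DMM replicate 2 (8 of 8, 67.6 to 100%), so that its share did not set control replicate 4 apart. Other segments high in that kidney were Igkv1-88 with 72 counts and 7 in DMM replicate 4 alone, Ighv14-4 with 63 and 1 each in DMM replicates 1 and 2, Ighv1-15 with 51, Ighv1-9 with 50, Igkv19-93 with 49 and Igkv3-10 with 38. Ighv1-15 is named after its values were seen. Of the other lambda segments, Iglv2 had 12 counts in control and 3 in DMM kidneys, and Iglv3 had 5 and 8.

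In the other kidneys, some leading heavy and kappa segments were shared and most were not. For heavy V segments it was Ighv1-12 with 21 of 98 counts in control replicate 1 (21.4%, 95% Wilson interval 14.5 to 30.5%), Ighv3-6 with 13 of 59 in control replicate 5 (22.0%, 13.4 to 34.1%), Ighv14-2 with 17 of 54 in DMM replicate 3 (31.5%, 20.7 to 44.7%), the same segment with 5 of 30 in DMM replicate 5 (16.7%, 7.34 to 33.6%) and Ighv1-64 with 10 of 31 in DMM replicate 4 (32.3%, 18.6 to 49.9%). For kappa V segments it was Igkv4-59 with 17 of 58 in control replicate 1 (29.3%, 19.2 to 42.0%), Igkv5-48 with 20 of 94 in DMM replicate 1 (21.3%, 14.2 to 30.6%), Igkv6-23 with 15 of 34 in DMM replicate 4 (44.1%, 28.9 to 60.5%) and Igkv6-32 with 6 of 26 in DMM replicate 5 (23.1%, 11.03 to 42.1%). Igkv6-32 was also 1 of 3 segments that shared the highest kappa V count in DMM replicate 2, with 4 of 46 each (8.70%, 3.43 to 20.3%). The leading heavy segment of control replicates 2 and 3 and DMM replicates 1 and 2 held 12.2 to 14.3% (95% Wilson intervals between 6.55 and 26.7%), and the leading kappa segment of control replicates 2, 3 and 5 and DMM replicate 3 held 13.8 to 17.6% (between 7.29 and 27.8%). These segments were named as the leading ones of their kidney after their values were seen. By family, Ighv1 held 673 of the V counts on 38 of its 53 segments, with 392 of them in control replicate 4, 170 in the other control kidneys and 111 in DMM.

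V segments arose by duplication, and reads of close relatives can be assigned to either, or to none. Stretches of 50 bases shared with another immunoglobulin transcript made up 53.5% of Igkv3-10, 53.3% of Igkv4-55, 49.0% of Ighv1-26 and 37.1% of Ighv14-2. They made up 24.0% of Iglv2, 22.2% of Iglv1, 21.2% of Ighv14-4 and 18.5% of Ighv1-80. The share was 0.662% for Ighv1-9 and 0% for Igkv1-88, Igkv19-93, Igkv5-48 and Iglv3. Counts of the segments with 18.5% or more are therefore uncertain at the level of the single segment. The first 300 coding bases of Ighv1-80 and Igkv4-55, which led in control replicate 4, and of Ighv1-26 are shown, since they tell how few bases separate each from its nearest relative. They were read from the reference transcripts of the mouse annotation of build GRCm38 (mm10), not from the libraries, on the coding strand, with the intron between their 2 exons left out. Capitals mark bases at which the segment differs from the most similar other immunoglobulin transcript, which is Ighv1-82 for Ighv1-80 (chr12:115912395-115912776, minus strand, 13 of the 300 bases), Igkv4-68 for Igkv4-55 (chr6:69607327-69607801, minus strand, 14) and Ighv1-18 for Ighv1-26 (chr12:114788423-114788805, minus strand, 10).
Ighv1-80: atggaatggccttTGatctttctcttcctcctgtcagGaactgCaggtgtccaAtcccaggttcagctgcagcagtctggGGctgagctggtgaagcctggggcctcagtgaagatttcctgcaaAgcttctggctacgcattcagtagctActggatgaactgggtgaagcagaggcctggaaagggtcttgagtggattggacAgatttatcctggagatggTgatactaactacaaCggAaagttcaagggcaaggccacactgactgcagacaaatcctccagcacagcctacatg
Igkv4-55: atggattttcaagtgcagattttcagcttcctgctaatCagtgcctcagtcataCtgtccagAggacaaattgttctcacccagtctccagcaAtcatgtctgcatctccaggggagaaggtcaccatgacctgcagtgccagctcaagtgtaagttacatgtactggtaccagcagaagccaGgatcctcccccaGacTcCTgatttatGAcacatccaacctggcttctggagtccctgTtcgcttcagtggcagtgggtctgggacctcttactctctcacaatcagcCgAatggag
Ighv1-26: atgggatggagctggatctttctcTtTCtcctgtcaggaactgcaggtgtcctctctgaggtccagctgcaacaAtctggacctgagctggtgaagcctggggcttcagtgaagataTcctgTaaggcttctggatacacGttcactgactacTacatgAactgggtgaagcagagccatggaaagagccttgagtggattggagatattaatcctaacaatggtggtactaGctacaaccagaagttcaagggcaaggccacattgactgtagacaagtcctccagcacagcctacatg

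The short segments gave few counts. The 14 J segments, 38 to 100 bases long, had 193 counts, 122 in control and 71 in DMM kidneys. Their sum was 1.32, 0.647, 2.70, 1.44 and 0.647 CPM in control replicates 1 to 5 and 1.30, 0.315, 0.680, 0.785 and 1.22 CPM in DMM replicates 1 to 5. Control replicate 3 was the highest, and control replicate 4 did not stand apart. Ighj3, Ighj4 and Ighj1 had the highest mean levels, with 44, 40 and 39 counts in all. Ighj1 had 16 and Ighj4 14 of these in control replicate 3. The 19 D segments, 10 to 29 bases long, and the 4 LV segments had 0 counts in all libraries. The 155 V pseudogenes, which are not members, had 18 counts in all, 9 of them in DMM replicate 4.

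The genes that accompany the B lineage were examined next. Genes of these lists called over the 8 libraries had adjusted p values by edgeR between 0.392 and 0.502 over all 10, where edgeR called 0 of them and DESeq2 called Ccr7 and Fcer1g lower. With DMM replicate 1 alone left out, edgeR called Slamf7, Cd22, Cd72, Il21r, Ccr7, Cd40, Tnfsf13b, Fcer1g, Fcgr1, Fcgr4, Trim21, Cd4 and Cd68 lower and no gene of these lists higher. Among all 16760 genes tested in that fit, 2.55% were called lower and 0.251% higher. The counts in every list below stand beside shares of all genes tested. Over the 8 libraries 3.43% were called lower and 2.55% higher. At the unadjusted threshold over all 10, 4.08% were lower and 1.86% higher. Each of the 8 libraries was also left out in turn, and ranges of adjusted p below are over these 8 fits. Among all genes tested, the fit without DMM replicate 4 called 1248 lower and 1103 higher of 16828. That without DMM replicate 2 called 559 lower and 354 higher of 16923. The plasma cell list held 18 genes of secretion and plasma cell identity, of which 16 were tested. Over all 10 libraries 0 were called by edgeR, and 2 passed an unadjusted p below 0.05 and the same fold change as lower. Over the 8, 1 was called lower, Slamf7, a surface receptor that other leukocytes also carry (adjusted p by edgeR 0.0253, range 0.0165 to 0.0899). The call was lost without control replicate 1, 2 or 5 or DMM replicate 5, and without DMM replicate 4 Derl3 was also called lower and Eaf2 higher. The median log2 fold change was -0.14 over 10 and -0.27 over 8 libraries, against 0.02 over all genes in both. The summed level of the list was 632, 709, 606, 893 and 741 CPM in control replicates 1 to 5 and 791, 678, 658, 814 and 716 CPM in DMM replicates 1 to 5. Its most abundant gene by mean over all 10 libraries, Xbp1, encodes the transcription factor of the secretory programme and is also made by tubular and other secretory cells. In control kidneys Txndc5, another gene of the list, had a higher mean, at 219 against 187 CPM. Xbp1 was at 156, 193, 167, 220 and 199 CPM in control replicates 1 to 5 and at 213, 219, 223, 312 and 258 CPM in DMM replicates 1 to 5, with a log2 fold change of 0.39 (SE 0.14, adjusted p = 0.400 by edgeR's quasi-likelihood test). Derl3, a factor of protein disposal from the endoplasmic reticulum, was between 1.12 and 2.77 CPM in control and between 0.486 and 1.63 CPM in DMM kidneys, with a log2 fold change of -0.90 (SE 0.39). Of other genes of the list, Tnfrsf17, which encodes the survival receptor BCMA, was at 0.106 CPM or less in every kidney, and Mzb1 was at 2.39 CPM in control replicate 4 and between 0.176 and 1.01 CPM in the others. Sdc1, which tubular epithelium also expresses, was at 217 CPM in control replicate 4 and between 73.1 and 138 CPM in the others. Named after their values were seen, Fcrl5, a receptor-like gene of B cells and plasma cells, had 35 counts in control and 3 in DMM kidneys, with every DMM kidney below every control kidney, and was not tested. That pattern was seen in 1.16% of all genes tested, and Fcrl5 had at most 10 counts in any kidney. Ell2 and Eaf2 of the same list went the other way, with log2 fold changes of 0.54 (SE 0.26) and 0.44 (SE 0.40) over 10 libraries. Pou2af1, a transcriptional coactivator of B cells, had a log2 fold change of -0.84 (SE 0.42) over 10 and -1.17 (SE 0.47) over 8 libraries, and Prdm1, which encodes the plasma cell regulator BLIMP1, had one of 0.12 (SE 0.24) over 10.

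The B cell list held 21 genes, of which 18 were tested. Over all 10 libraries 0 were called by edgeR or DESeq2 and 3 were lower at an unadjusted p under 0.05 by edgeR (Cd22, Cd37 and Cd72), with a median log2 fold change of -0.24. Cd37, a surface protein of B and other immune cells, was between 7.31 and 9.06 CPM in control and between 2.11 and 7.16 CPM in DMM kidneys. Over the 8 libraries, Cd22 and Cd72 were called lower and Cr2 higher, with a median of -0.40. Without control replicate 4, the calls of Cd72 (adjusted p by edgeR 0.0630) and Cr2 (0.122) were lost and Cd22 was still called (0.0135). The log2 fold changes of Cd72 and Cr2 were then -1.66 and 0.88, as over the 8. Over all 10 libraries they were -1.21 and 0.55. Cd22 was called in 8 of the 8 fits (adjusted p by edgeR 0.000475 to 0.0150), Cd72 in 3 (0.000435 to 0.0688) and Cr2 in 1 (0.0146 to 0.133). Only the fits without DMM replicate 2 or 4 or control replicate 2 kept Cd72, and that without DMM replicate 4 kept Cr2 and added Pax5 as lower. The summed level was 217, 199, 174, 224 and 220 CPM in control replicates 1 to 5 and 203, 140, 127, 136 and 134 CPM in DMM replicates 1 to 5. The most abundant gene by mean over all 10 libraries was Cd72, an inhibitory receptor. In DMM kidneys Blnk, another gene of the list, had a higher mean, at 37.0 against 33.1 CPM. Cd72 was at 95.5, 61.2, 63.8, 79.9 and 81.5 CPM in control replicates 1 to 5 and at 64.5, 33.5, 29.4, 10.5 and 27.6 CPM in DMM replicates 1 to 5, and its log2 fold change over the 8 libraries was -1.66 (SE 0.32, adjusted p = 0.0207 by edgeR's quasi-likelihood test). Cd22, an inhibitory receptor of B cells, changed by -1.79 on the log2 scale over the 8 (SE 0.22, adjusted p = 0.00253 by the same test) and by -1.15 (SE 0.38) over all 10. Of the defining genes of B cells, Cd79a, which carries the signal of the B cell receptor, was between 0.562 and 1.35 CPM in control and between 0 and 1.605 CPM in DMM kidneys, where replicate 4 was at 0. Ms4a1, which encodes CD20, was between 0.424 and 1.76 CPM in control and between 0.0604 and 1.42 CPM in DMM kidneys. The log2 fold changes of Cd79a and Ms4a1 over all 10 libraries were -0.23 (SE 0.63) and -0.34 (SE 0.59).

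Of 12 genes of germinal centres and class switching, 7 were tested, with 0 called over all 10 libraries by edgeR or DESeq2, 1 lower at an unadjusted p under 0.05 by edgeR, and 1 called lower over the 8, the cytokine receptor gene Il21r (log2 fold change -1.28, SE 0.21, adjusted p = 0.0109 by edgeR's quasi-likelihood test, range 0.00153 to 0.0471). The median of the tested genes was -0.28 over 10 and -0.44 over 8 libraries. The summed level was 146 to 182 CPM in control and 123 to 184 CPM in DMM kidneys, and the most abundant gene was Bcl6, at 35.0 to 59.2 CPM in control and 41.3 to 78.1 CPM in DMM kidneys, which many cell types express. Gcsam, a gene of germinal centre B cells, had a log2 fold change of -0.73 (SE 0.37) over 10 libraries. Il21 and Rgs13 had at most 1 count in any library.

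Of 20 genes of recruitment and survival, 14 were tested. Over all 10 libraries 0 were called by edgeR, with 6 lower and 1 higher at an unadjusted p under 0.05, and DESeq2 called 1 lower, Ccr7 (log2 fold change -1.25, adjusted p = 0.0444). Over the 8, 4 were called lower (Cxcr4, Tnfsf13b, Ccr7 and Cd40) and 1 higher (Ccl28) by edgeR, with medians of -0.49 over 10 and -0.56 over 8 libraries. Without control replicate 4, 3 of these calls were lost, those of Cxcr4 (adjusted p by edgeR 0.0977), Tnfsf13b (0.0624) and Ccl28 (0.0561). Their log2 fold changes moved little, from -1.20 to -1.10, from -0.88 to -0.87 and from 1.54 to 1.44. Ccr7 and Cd40 were called in 8 of the 8 fits, Ccl28 in 5, Tnfsf13b in 4 and Cxcr4 in 2, those without DMM replicate 2 or 4. The call of Ccl28 was also lost without control replicate 2 or 5, and that of Tnfsf13b without control replicate 1 or 5 or DMM replicate 3. The summed level was 395 to 509 CPM in control and 257 to 415 CPM in DMM kidneys. The most abundant gene was Cxcl12, the chemokine that retains plasma cells in their niche, at 103 to 206 CPM in control and 80.2 to 167 CPM in DMM kidneys, with a log2 fold change of -0.34 (SE 0.23). Its receptor gene Cxcr4 changed by -1.20 on the log2 scale over the 8 libraries (SE 0.26, adjusted p = 0.0288 by edgeR's quasi-likelihood test, range 0.00795 to 0.0977). Ccr7, the homing receptor of lymphocytes and dendritic cells, had one of -1.64 (SE 0.27, adjusted p = 0.0108, range 0.00236 to 0.0461), and Cd40, the receptor for T cell help, one of -1.06 (SE 0.16, adjusted p = 0.00861, range 0.000330 to 0.0433). Cxcl13, the chemokine of B cell follicles, was between 0.506 and 0.851 CPM in control and between 0 and 0.189 CPM in DMM kidneys. It did not pass the filter on low counts over 10 or 8 libraries, and it is named after its values were seen. Over the 8 without DMM replicate 2 or 4 it was tested and called lower. With at most 3 counts in any DMM kidney, it passed the filter there through control kidneys alone, so these calls are no support. Without DMM replicate 4, Ltb was also called lower.

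Immunoglobulin is bound and carried by receptors that other cells make. Of 12 such genes, 10 were tested over all 10 libraries, with 0 called by edgeR and 4 lower at an unadjusted p under 0.05. DESeq2 called 1 of them lower, Fcer1g (log2 fold change -0.95, adjusted p = 0.0452). Over the 8, 11 were tested and 4 were called lower (Fcgr1, Fcgr4, Fcer1g and Trim21) by edgeR. All 4 were still called without control replicate 4, Fcer1g was lost without control replicate 5 (adjusted p 0.0513), and without DMM replicate 4 Fcamr was called higher. The medians were -0.32 and -0.35. The summed level was 712 to 862 CPM in control and 498 to 774 CPM in DMM kidneys. Fcer1g, the shared signalling chain of Fc receptors, fell by 1.21 on the log2 scale over the 8 libraries (SE 0.21, adjusted p = 0.0123 by edgeR's quasi-likelihood test, range 0.00172 to 0.0513), Fcgr1, the high-affinity IgG receptor gene, fell by 1.74 (SE 0.16, adjusted p = 0.000462, range 0.000184 to 0.00360), and Trim21, a cytosolic antibody receptor gene, fell by 1.76 (SE 0.16, adjusted p = 0.000462, range 9.18e-05 to 0.00399). Over all 10 libraries the log2 fold changes of Fcgr1 and Trim21 were smaller, -1.10 (SE 0.36) and -1.18 (SE 0.34). The most abundant gene, Fcgrt, encodes the neonatal Fc receptor and was at 149 to 177 CPM in control and 88.1 to 196 CPM in DMM kidneys, with a log2 fold change of -0.02 (SE 0.19). Fcer1a had 0 counts in all libraries.

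Markers of other cells were examined in the same way. In the T cell list, 14 of 14 genes were tested, 0 were called over 10 libraries by edgeR or DESeq2 with 9 lower at an unadjusted p under 0.05 by edgeR, and over the 8, Cd4 alone was called lower (adjusted p by edgeR 0.0293, range 0.0131 to 0.0989). That call was lost without control replicate 4 (0.0606), where the log2 fold change was -1.28 against -1.19 over the 8, and it held without DMM replicate 2 or 4 alone of the 8. In those fits 7 and 4 genes of the list were called lower, beside 559 of 16923 and 1248 of 16828 among all genes tested. The summed level of the list was 77.1, 81.7, 77.2, 61.1 and 112 CPM in control replicates 1 to 5 and 71.5, 63.8, 25.9, 30.4 and 30.9 CPM in DMM replicates 1 to 5, and Cd4, the coreceptor of helper T cells, was its most abundant gene. Cd5, a surface receptor of T cells, and Cd3d, a chain of the T cell receptor complex, had log2 fold changes of -1.03 (SE 0.31) and -1.23 (SE 0.44) over all 10 libraries. In the macrophage list, 10 of 10 were tested, 0 were called over 10 libraries by edgeR or DESeq2 with 5 lower at an unadjusted p under 0.05 by edgeR, and over the 8, Cd68 alone was called lower (adjusted p by edgeR 0.0120, range 0.00345 to 0.0463). It was called in 8 of the 8 fits, and without DMM replicate 4, 6 genes of the list were called lower, beside 7.42% of all genes tested. Mrc1, a mannose receptor gene, is named after its values were seen. It had a log2 fold change of 0.13 (SE 0.23) over all 10 libraries and was highest in DMM replicate 4, at 202 CPM. The summed level of the macrophage list was 2340, 2439, 1876, 2177 and 2568 CPM in control replicates 1 to 5 and 2238, 1585, 1294, 1028 and 1314 CPM in DMM replicates 1 to 5. Lyz2, a lysozyme gene, was the most abundant gene of the list. Adgre1, which encodes F4/80, and C1qb, a complement gene, had log2 fold changes of -0.61 (SE 0.17) and -0.98 (SE 0.35) over all 10 libraries. The median log2 fold changes were -0.89 over 10 and -1.13 over 8 libraries for the T cell list, and -0.60 and -0.80 for the macrophage list. In neither list was control replicate 4 the highest kidney, and its T cell sum lay below those of DMM replicates 1 and 2. DMM replicate 1 was close to the controls in both lists, as it was in the immunoglobulin genes.

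**Figure D3:**
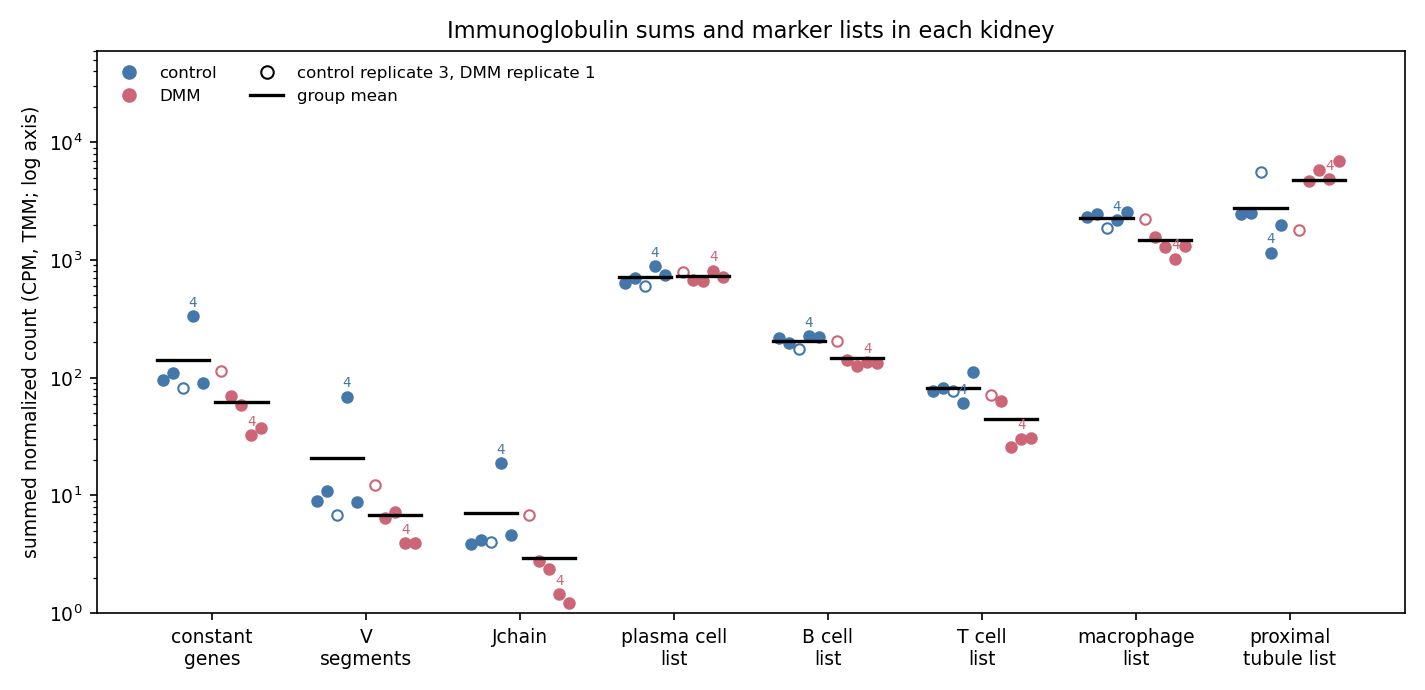
Summed normalized counts (CPM with TMM, log axis) of the constant genes, the V segments and 5 marker lists, and the level of Jchain, with a point for each of 5 control and 5 DMM kidneys and a line at the group mean. Open points are control replicate 3 and DMM replicate 1, and points marked 4 are the replicates of that number. Control replicate 4 stands apart in the immunoglobulin sums, at 333.1 CPM for constant genes, while its B cell list, at 224 CPM, is close to those of control replicates 1 and 5, at 217 and 220 CPM.

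The proximal tubule list went the other way. All 10 of its genes were tested, 0 were called over 10 libraries by edgeR or DESeq2 with 2 higher at an unadjusted p under 0.05 by edgeR, and over the 8, 4 were called higher (Lrp2, Slc5a12, Cubn and Hnf4a), with medians of 0.72 over 10 and 1.52 over 8 libraries. These 4 were still called without control replicate 4. Slc5a12 was called in 8 of the 8 fits, Lrp2 and Cubn in 7 (lost without control replicate 5) and Hnf4a in 3 (lost without control replicate 1, 2 or 5 or DMM replicate 3 or 5). Without DMM replicate 4, 9 genes of the list were called higher, beside 1103 of 16828 among all genes tested. The summed level of the list was 2444, 2498, 5652, 1156 and 2000 CPM in control replicates 1 to 5 and 1805, 4731, 5783, 4869 and 6910 CPM in DMM replicates 1 to 5. Control replicate 4, the kidney with the most immunoglobulin, was the lowest, and DMM replicate 1 was below all control kidneys but that one. In control kidneys Slc27a2 and Slc34a1 had the highest means of the list, at 653 and 600 CPM, against 529 CPM for Lrp2. By mean over all 10 libraries the most abundant gene was Lrp2, the endocytic receptor megalin. It stood at 2504 CPM in DMM replicate 4 and between 220 and 1277 CPM in the other kidneys. Its log2 fold change over the 8 was 1.97 (SE 0.36, adjusted p = 0.0156 by edgeR's quasi-likelihood test, range 0.00689 to 0.0664). Cubn, its partner cubilin, and Slc5a12, a lactate transporter gene, changed by 1.73 (SE 0.30) and 2.11 (SE 0.33) on the log2 scale over the 8. Over all 10 libraries they changed by 1.18 (SE 0.43) and 1.22 (SE 0.59). Of 8 genes of lymph node stroma, 7 were in the table, 5 were tested and 0 were called over 10 or 8 libraries by edgeR or over 10 by DESeq2, with 0 past an unadjusted p under 0.05 and medians of -0.09 and -0.31. Its summed level was 56.6 to 103 CPM in control and 53.7 to 116 CPM in DMM kidneys, mostly from Pdpn, which other stromal and epithelial cells express. Ccl21a, a chemokine of lymphatic vessels and lymph nodes, was at 13.8 CPM in control replicate 4 and 10.2 CPM in control replicate 5, at 6.26 CPM in DMM replicate 5 and at 1.76 CPM or less elsewhere. Lyve1, a lymphatic marker, was highest in control replicate 4, at 7.02 CPM, and between 1.27 and 2.94 CPM in the others. Madcam1 and Glycam1, of lymph node vessels, were at 1.51 and 0.063 CPM or less in every kidney. The part of these cell types in the immunoglobulin levels was not tested.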

How the data were processed

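The deposited sample records name TRIzol for RNA extraction, while the paper's methods name an extraction kit. The libraries were mRNA libraries. Alignment was to mm10, with HISAT2 2.0.5 named in the submitters' processing notes. The counts that the authors deposited are reads per gene without normalization. The counting tool, the strand setting and the handling of reads that match several genes are not given in the sources used here. FPKM, also deposited, scales counts to gene length and library size and served only as an alternative for sums and shares. The deposited group means, a signal in scaled counts, served only to find which libraries they average, over 28001 genes. Columns of the authors' comparison (log2 fold change, p-value and adjusted p-value) were not used.

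Genes were kept by filterByExpr, scaled by TMM and tested by the quasi-likelihood F test of edgeR 4.0.16 in R 4.3.3, 5 control against 5 DMM libraries, with Benjamini-Hochberg adjustment over all genes tested. The SE is the log2 fold change over the square root of F. The steps were tested on simulated counts. Alternatives used DESeq2 1.42.0, scaling with RLE or with library size, no filter or a stricter one, a replicate block, protein-coding and immunoglobulin genes alone, the 8 libraries, and each library left out in turn. Leaving out libraries from the 8 was added after seeing the data. Intervals are 95% Wilson intervals (scipy 1.17.1). Positions of 269 of 269 members equal those of the GENCODE annotation of GRCm38 in use here, whose transcripts were compared by local alignment (Biopython 1.88) and by shared stretches of 50 bases. Promoter sequences of V segments were not analysed here.

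The members and lists were chosen with earlier results of these data known. Named were every constant gene and Jchain, the 5 heavy, 5 kappa and 3 lambda V segments and the 3 D or J segments of highest mean CPM, members called or among the 3 of smallest p, and in each list the 3 genes of smallest p over 10 libraries and the most abundant gene. Other genes are named for a small count or after their values were seen.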

Additional observations from a re-analysis of the deposited data

Results flagged for a closer look

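Single libraries stood far from the others of their group in 33 of 81 groups of 5 kidneys examined, by the gap of the highest or lowest value over the range of the group. Chance gives this in about 1 in 20 groups of normal values. The 33 groups cannot be read against that rate, since the quantities share genes and libraries, counts with many 0s are not normal, and the V segments (11 of 25 groups) were chosen by mean level, which a single high kidney raises. In 4 of the 33 the other kidneys of the group were all at 0. Control replicate 4 was the library in 25 of the 33, DMM replicate 1 in 4 and other libraries in 4.

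Control replicate 4 stood above the other control kidneys in summed levels, at 333.1 CPM for constant genes, 253.7 for heavy, 65.8 for kappa and 13.7 for lambda constant genes and 73.7 for the IgG genes. Its summed V levels were 68.9 CPM in all, 28.9 for heavy, 29.8 for kappa and 10.2 for lambda segments. Of single constant genes, Ighm was at 151.7, Igkc at 65.8, Ighg3 at 63.8, Iglc1 at 11.6, Ighg2c at 3.35, Iglc2 at 1.44 and Iglc3 at 0.638 CPM, and Jchain was at 18.7 CPM. Among V segments, Iglv1 was at 10.002, Igkv4-55 at 9.90, Ighv1-80 at 9.42, Igkv1-88 at 3.83, Ighv14-4 at 3.35, Ighv1-9 at 2.66, Igkv19-93 at 2.61 and Igkv3-10 at 2.02 CPM.

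DMM replicate 1 stood above the other DMM kidneys in Jchain, at 6.85 CPM, Ighg1, at 6.05 CPM, Ighj4, at 0.309 CPM, and Igkv19-93, at 0.0617 CPM. DMM replicate 2 did in Ighv1-80, at 0.252 CPM. DMM replicate 4 did in Igkv1-88, at 0.423 CPM, and in the level of Ighm over that of Igkc per length, at 7.05. Control replicate 3 stood above the other control kidneys in Ighj1, at 0.900 CPM. The values under 0.5 CPM rest on 7 counts or fewer.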

How the results depend on the processing

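Of 820 values computed under alternatives, 765 kept their direction and their side of the threshold, 29 passed it in the alternative alone, 19 reversed and 7 moved. The number of members called lower was 0 over all 10 libraries by edgeR, DESeq2 and every other setting, and 1 over the 8 libraries. At an unadjusted p under 0.05, 2 of 9 were lower by edgeR over all 10, where 4.08% of all genes tested were lower. The count was 9 of 170 by DESeq2, 21 of 170 (and 2 higher) with no filter, 1 with the replicate block, 1 with the stricter filter and 1 to 4 with each library left out. The share of all genes at this threshold is not given for these other settings, so their counts cannot be read against it and support no difference. With each of the 8 left out in turn, an alternative chosen after seeing the data, 0 to 1 were called lower by edgeR. Ighg1 reversed to -0.21 with the replicate block and to -1.13 over the 8 libraries, and with each of the 10 left out in turn it ran from -1.14 to 1.22. Fcgrt was 0.040 over the 8 libraries and ran from -0.11 to 0.13, Lyve1 from -0.69 to 0.10, Madcam1 from -0.35 to 0.068 and Pdpn from -0.28 to 0.10. Pdpn was 0.0042 with RLE size factors and 0.010 with the stricter filter. The cause was not tested. The difference in summed log2 level ran from -1.35 to -0.72 for constant genes and from -1.35 to -0.51 for V segments with each library left out. No member was called with the replicate block, and the replicate numbers were not found to pair kidneys, with correlations between -0.223 and 0.343. The stricter filter left Iglc1, Ighg1 and Ighg2c untested. Counts were too few to test any V, D or J segment.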
